A study of Homo sapiens with 30 samples.

Results

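The change in mRNA levels of a human line whose RNA polymerase II carried alanine at serine 2 of its repeats (S2A) was set against the change in the matching line with a wild-type tail (WT). The comparison used 8 of the 30 libraries of the series: the S2A and WT lines, each untreated and treated, with 2 libraries per group. All 4 groups carried RPB1, the largest subunit of the polymerase, with a degron tag, through which the compound dTAGV-1 has the protein destroyed. Both lines also held a second, doxycycline-induced RPB1, with either the S2A or the WT tail. Treated cells received 2 µg/mL doxycycline for 24 h and then 100 nM dTAGV-1 for 12 h, and untreated cells received neither, so the WT line controls for the same 2 agents and for the replacement itself. The question was which mRNAs responded differently when serine 2 of the incoming polymerase was replaced. For each of 19982 genes the value tested was the treated minus untreated change in S2A, less the same change in WT, called the difference in change below. How each line was cloned is not given in the labels. They also do not say that the 2 libraries of a group came from separate cultures. Each p-value reflects the spread between libraries of the same group, pooled over the 15 groups of the series, and this spread may be technical.

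The C-terminal domain (CTD) of RPB1 is a long tail of 7-residue repeats with the consensus tyrosine, serine, proline, threonine, serine, proline, serine. Serine 5 is phosphorylated mainly as transcription starts, by the kinase CDK7, and serine 2 mainly during elongation, by CDK9, CDK12 and CDK13. Factors for elongation, splicing, 3' end formation and termination dock on these marks. A search of the last exon (exon 29) of a POLR2A transcript in GENCODE 29, the gene encoding RPB1, found 50 repeats of the form tyrosine, any residue, proline, any residue, serine, proline, any residue. Of these, 35 lay in 1 reading frame and the last 15 in another, and the annotation tags the transcript as carrying a sequence error, so the 50 are not 1 open frame of the reference bases. Serine stood at position 2 in 41 of them, threonine in 8 and another residue in 1, and 21 matched the consensus throughout. The serines at position 2 were written with 6 different codons. The 4 repeats below, each 21 bases on the plus strand of GRCh38, show the codon at position 2 in capitals, since this is the position that the S2A tail changes to alanine. They lie at chr17:7513086-7513106, chr17:7513107-7513127, chr17:7513170-7513190 and chr17:7513191-7513211. The first has threonine at that position and the others serine, in 3 spellings. These are reference bases of the endogenous gene, and the sequence of the induced copy is not given in the labels.
repeat 3: tacACAccccagagtccctct
repeat 4: tatTCCcccacttcaccctcc
repeat 7: tatAGTcccacatcacccagc
repeat 8: tatTCGccaacgtcacccagc

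The cells are labelled A549, a lung adenocarcinoma line, and the labels were checked against markers of that line. In the 8 libraries KRT8 stood at 33.3 to 123 CPM (counts scaled to a library of standard size) and KRT18 at 39.4 to 49.8 CPM, against 5507 to 5810 and 2898 to 2903 CPM in the 2 Mock libraries of the series. KRT7 was at no more than 0.0848 CPM in the 8 libraries, against 1854 to 2026 CPM in Mock. KRT19 had 0 counts in them, against 128.8 to 152.5 CPM, and EPCAM was at 0.134 to 1.74 CPM against 5.84 to 6.32 CPM. The lung factor NKX2-1 was at 1.2 to 7.29 CPM, and at no more than 0.307 CPM in Mock. NQO1, which is abundant in A549, was at 2.63 to 5.47 CPM against 1792 to 1848 CPM. NEFM, a neurofilament gene, was at 50.1 to 117 CPM against at most 0.383 CPM. The same levels set all 28 libraries of the 7 engineered lines apart from Mock. KRT8, KRT18, KRT7, KRT19, EPCAM and NQO1 stood below Mock, and NKX2-1 and NEFM above it. These markers did not bear out the A549 label in the engineered lines. The reason was not tested. The engineered lines are called by their labels here and no comparison with Mock is made. A fit without the Mock libraries called 1393 genes between S2A and WT, against 1505 with them.

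The 8 libraries held 11356689 to 15472914 counts. The treated WT libraries stood further apart than any other pair of the 4 groups. The SD of the log2 difference between replicates was 0.409 in treated WT, against 0.134 in untreated WT, 0.12 in untreated S2A and 0.184 in treated S2A. The treated WT libraries also sloped in opposite directions with transcript GC content, by -0.11 and 0.293 on the log2 scale per 10 percentage points. The part of this in each result was not tested gene by gene, but the fits without either library are given where they change a call. Mitochondrial mRNAs took 2.95% to 3.11% of counts in the 4 untreated libraries, 3.83% and 3.3% in treated WT and 4.11% and 4.26% in treated S2A. Markers of other cell types were counted as well. Summed over 7 endothelial markers the level was 5.72 to 6.67 CPM in untreated WT, 7.37 to 7.64 in treated WT, 4.21 to 4.38 in untreated S2A and 14.3 to 14.8 in treated S2A. Of the 6 that were tested, 2, KDR and ESAM, were called higher in the difference in change (33.3%, against 2.87% of all genes). VWF, a defining marker, was at no more than 0.163 CPM in any of the 8 libraries. The part of this marker change in the results below was not tested.

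POLR2A itself, whose counts take in endogenous and induced RPB1 mRNA alike, was read first. Its levels were 302 and 290 CPM in untreated WT, 518 and 1020.0 in treated WT, 295 and 296 in untreated S2A, and 680 and 598 in treated S2A. It rose with treatment in both lines, by 1.38±0.27 on the log2 scale in WT (adjusted p = 0.0034, edgeR) and by 1.11±0.27 in S2A (adjusted p = 0.0025). The treated groups overlapped, and the difference in change was -0.27±0.37 (adjusted p = 0.75). Protein was not measured here.

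Relative to WT, 574 genes (2.87% of those tested) changed more upward or less downward in S2A, and 931 (4.66%) changed more downward or less upward, which together made 7.53% of the genes tested. A call was an adjusted p under 0.05 in edgeR's quasi-likelihood test, and 4233 genes had an unadjusted p under 0.05. The difference exceeded 2-fold for 271 of the higher and 320 of the lower genes. Most called genes moved in S2A and were not called in WT: of the 574 higher genes, 490 rose in S2A with no call in WT, 46 rose in both lines, and 18 fell in WT with no call in S2A. Of the 931 lower genes, 804 fell in S2A with no call in WT, 74 fell in both, and 21 rose in WT with no call in S2A. Opposite calls in the 2 lines were found for 7 of the higher and 9 of the lower genes. By their medians, both sets also changed in the same direction in the other engineered lines, as given below. Within each line, 7015 genes (35.1%) were called with treatment in S2A, 3387 higher (17%) and 3628 lower (18.2%), and 985 (4.93%) in WT, 618 higher (3.09%) and 367 lower (1.84%). The authors' deposited tables, made with DESeq2 and other scaling factors, held 677 higher and 8390 lower calls in S2A, and 15 and 6 in WT. The near-even split within S2A thus holds for the scaling and test used here only.

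**Figure D1:**
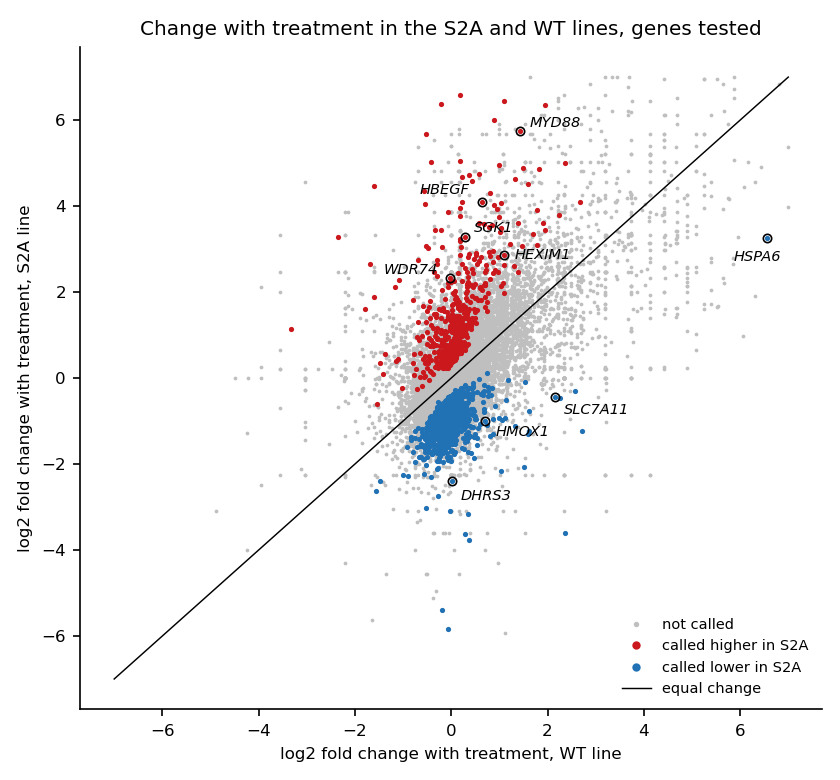
Log2 fold change with treatment in the WT line (horizontal axis) against the S2A line (vertical axis), 1 point per gene tested, with the 574 genes called higher in S2A in red and the 931 called lower in blue. The line marks equal change, and most coloured points lie near 0 on the WT axis and away from 0 on the S2A axis. Circled points carry gene names.

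The balance of higher and lower calls rested on scaling. With the TMM factors used here 38.1% of the called genes were higher, and with the size factors of DESeq2 it was 49.3%. Scaling by the 13 mitochondrial mRNAs lowered the median difference of all genes from -0.07 to -0.35 and gave 198 higher and 2032 lower calls, 8.88% of them higher. The factors behind the authors' deposited tables lowered it to -0.36 and gave 133 higher and 1213 lower calls, 9.88% of them higher. A change of all mRNAs together is therefore not settled by the TMM values, and the differences below are relative to the typical gene. In bulk RNA of this kind, fewer cells with a given mRNA and less of it per cell cannot be told apart. GC correction gave 2261 higher and 2366 lower calls, and a fit of the 8 libraries alone 239 and 258. With each of the 8 libraries left out in turn, the counts ran from 275 to 676 higher and from 408 to 1179 lower. The highest values in both ranges came without replicate 1 of treated WT. Leaving out any 1 of the 4 untreated or the 2 treated S2A libraries gave 275 to 327 higher and 408 to 475 lower, each over 1.5 times fewer. Called in the same direction in all 20 other fits of this comparison (other scalings, filters, models, blocks and left-out libraries) were 63 higher and 170 lower genes.

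The lines also differed before treatment. In untreated cells 2666 of the 19982 genes tested were higher and 2596 lower in S2A than in WT. When treated S2A was compared directly with treated WT, 3772 genes were higher and 4203 lower. These comparisons share libraries with the difference in change, so levels in all 8 libraries are given for the genes described at length. For genes given by their difference alone, the untreated lines may have differed too.

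The counts of each list below are to be read against the 2.87% of all genes called higher and the 4.66% called lower, and a list with only 1 or 2 calls is not read as having moved. Of the 35 gene lists examined, immediate early genes and other genes with short-lived mRNAs held the most higher calls. Of 40 tested, 13 changed more upward in S2A than in WT, against 2.87% of all genes, and 1 changed more downward. Their median difference was 0.64, against -0.07 for all genes, and their median change was 0.98 in S2A and 0.25 in WT. The higher members were FOSB, SGK1, IER3, KLF4, CCN2, NR4A3, ATF3, NR4A2, IER5, BTG1, KLF5, IER2 and ZFP36L1. Among them, FOSB and ATF3 encode AP-1 and CREB family factors, KLF4 and KLF5 zinc finger factors, and NR4A2 and NR4A3 orphan nuclear receptors. The lower member was ZFP36L2 (-0.80±0.23), which encodes a protein that promotes mRNA decay. With 1 library left out, 11 to 14 members were higher and at most 1 lower. The call of IER2 was kept in 1 of 8 such fits (adjusted p up to 0.13), that of ZFP36L2 in 1 (up to 0.12) and that of ZFP36L1 in 7 (up to 0.053). With mitochondrial scaling 11 were higher and 2 lower, and with the authors' factors 10 and 1. The list is one of several drawn up with earlier results of these data known.

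SGK1 encodes a kinase regulated by glucocorticoids and serum (chromosome 6, 134169246 to 134318112, minus strand). It stood at 8.80 and 8.47 CPM in untreated WT, 10.6 and 10.5 in treated WT, 8.91 and 8.49 in untreated S2A, and 80.9 and 89.5 in treated S2A. Both treated S2A libraries lay far above the other 6, which spanned a narrow range. The difference in change was 3.00±0.17 on the log2 scale, or 8.01-fold (adjusted p = 7e-10). FOSB (chromosome 19, 45467995 to 45475179, plus strand) stood at 3.52 and 3.12 CPM in untreated WT, 5.63 and 6.61 in treated WT, 1.41 and 1.94 in untreated S2A, and 29.3 and 25.7 in treated S2A. Here untreated S2A was the lowest group, by -0.98 against untreated WT (adjusted p = 0.0028), and treated S2A the highest. The difference in change was 3.14±0.28 (adjusted p = 5e-07), and treated S2A exceeded treated WT directly by 2.16 (adjusted p = 1e-09). FOSB lies opposite to ERCC1 on the other strand, and whether reads were counted by strand is not stated in the sources used here.

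KLF4 encodes a zinc finger factor of differentiation and pluripotency. It stood at 5.03 and 4.65 CPM in untreated WT, 6.05 and 5.78 in treated WT, 4.67 and 4.28 in untreated S2A, and 25.8 and 27.2 in treated S2A. The first 6 values nearly coincided, and the difference in change was 2.28±0.23 (adjusted p = 3e-06). IER3, a gene induced by growth factors and stress, showed the same layout, with 4.65 and 4.58 CPM in untreated WT, 4.64 and 6.05 in treated WT, 3.61 and 4.48 in untreated S2A, and 27.2 and 24.0 in treated S2A. Its difference in change was 2.44±0.23 (adjusted p = 1.5e-06). IER3 overlaps the antisense gene IER3-AS1.

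The promoters of 3 of the 13 higher members are shown for orientation. The 100 bases upstream of the annotated start are given in the direction of transcription, from RefSeq on GRCh38.p14, at chr19:45467896-45467995 for FOSB (plus strand), chr6:134318113-134318212 for SGK1 (minus) and chr9:107489770-107489869 for KLF4 (minus). Capitals mark TATAAA, the core of a TATA box, and GGGCGG, a GC box, on either strand. In SGK1 the marked letters, TTTATA, are a match on the opposite strand. The SGK1 window lies at the outermost end of a gene of 148867 bases. Which start the SGK1 mRNA used in these cells was not tested, so the window may not be the promoter of the mRNA that rose.
FOSB: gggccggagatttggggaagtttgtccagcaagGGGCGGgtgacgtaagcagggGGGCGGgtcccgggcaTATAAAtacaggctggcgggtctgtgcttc
SGK1: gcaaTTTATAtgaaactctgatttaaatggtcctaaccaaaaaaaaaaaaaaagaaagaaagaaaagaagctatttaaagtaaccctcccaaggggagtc
KLF4: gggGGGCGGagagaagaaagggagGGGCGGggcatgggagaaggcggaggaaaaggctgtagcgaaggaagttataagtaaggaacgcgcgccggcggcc

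In windows of 300 bases, 250 before to 50 after the start, TATAAA on either strand was found in 41 of 407 promoters of the genes called higher (10.1%). It was found in 37 of 723 promoters of the genes called lower (5.12%) and in 839 of 13203 promoters of all genes tested (6.35%). The GC box was found in 74.0%, 67.2% and 67.1% of the same sets. TGANTCA, the AP-1 site, was found in 2.46%, 4.98% and 4.81%. A match describes the letters only.

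Across the other lines the response of these genes varied. In 4 of them the induced tail had another residue replaced: tyrosine 1 by phenylalanine (Y1F), threonine 4 by valine (T4V), or serine 5 or 7 by alanine (S5A and S7A). SGK1 changed by 2.28 on the log2 scale in Y1F and 1.35 in T4V, and by 0.09 in S5A, 0.01 in S7A and 0.10 in the degron line, where RPB1 is lost with no replacement, against 3.29 in S2A. KLF4 changed by 1.32 in Y1F, 0.82 in T4V, -0.04 in S5A, 0.44 in S7A and -0.12 in the degron line, against 2.57. FOSB changed by 3.29 in Y1F, 1.76 in T4V, 1.96 in S5A, 0.88 in S7A and 1.00 in the degron line, against 4.02. Set against the mean change of Y1F, T4V, S5A and S7A, the change in S2A was higher for 439 genes (2.2% of those tested) and lower for 275 (1.38%), together 3.57%. These counts rest on the S2A libraries: without any 1 of the 4 they were 166 to 216 higher and 70 to 91 lower. With the authors' factors 435 were higher and 30 lower. Of the 574 genes higher against WT, 220 were called higher against this mean and 0 lower. Of the 931 lower against WT, 122 were called lower and 7 higher. The 574 had median changes of 0.96 in S2A and 0.05 in WT. Their medians were 0.30 to 0.55 in the 4 other mutant lines and 0.37 in the degron line. For the 931 these values were -0.94, -0.07, -0.49 to -0.79 and -0.70. A mean of 4 lines can hide a single line that changed as much as S2A. GRIK5 changed by 3.86 in Y1F against 4.30 in S2A, CRISPLD2 by 3.83 against 3.52, and NPTX2 by 2.95 against 2.91. Each of these was still called higher against the mean. This comparison shares the S2A libraries with the one against WT. In it the difference was 2.36±0.13 for SGK1 (adjusted p = 4.7e-10), 1.93±0.18 for KLF4 (adjusted p = 6.9e-07), 2.05±0.22 for FOSB (adjusted p = 6e-06) and 2.08±0.18 for IER3 (adjusted p = 6e-07). Of the 40 short-lived genes, 15 were higher in it, against 2.2% of all genes.

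**Figure D2:**
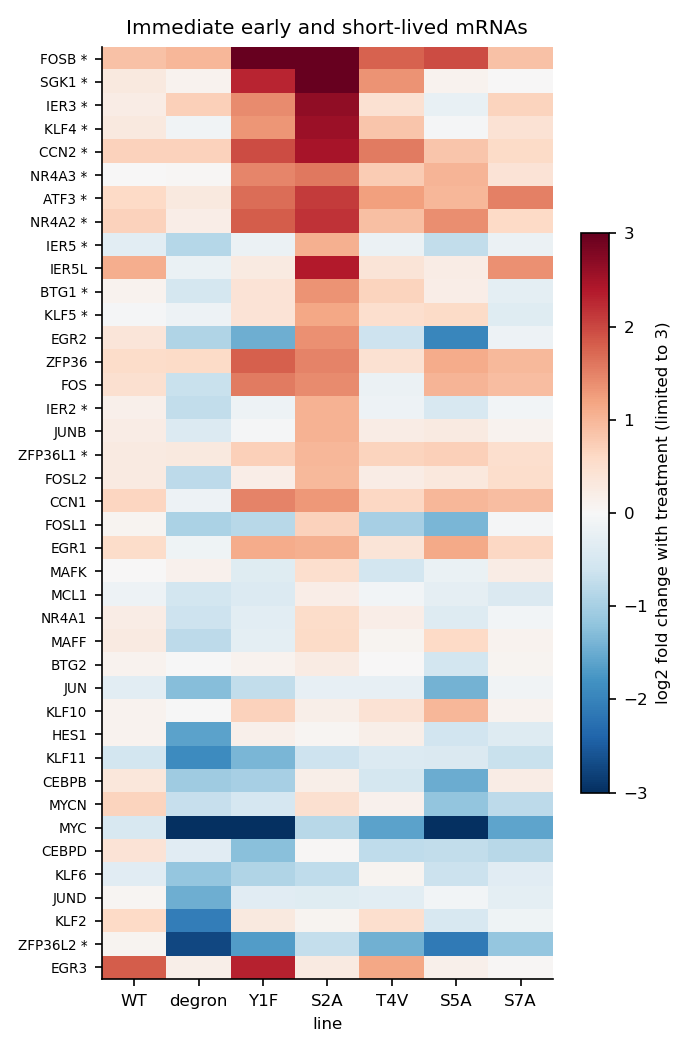
Log2 fold change with treatment of the 40 immediate early and short-lived genes (rows) in the 7 lines (columns), from -3 in blue to 3 in red, with stronger changes drawn at the limit. A star marks genes called between S2A and WT. The starred rows at the top are dark red in S2A, paler in WT, and red to varying degrees in Y1F.

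The other genes with the largest upward differences had varied functions. HBEGF, a ligand of the EGF receptor (chromosome 5, 140332843 to 140346631, minus strand), stood at 7.36 and 6.67 CPM in untreated WT, 8.95 and 12.9 in treated WT, 2.33 and 3.47 in untreated S2A, and 50.5 and 49.5 in treated S2A. It began lower in S2A and ended higher, with a difference in change of 3.45±0.25, or 10.9-fold (adjusted p = 5.5e-08). HBEGF changed by 1.65 to 2.48 in the 4 other mutant lines and by 1.95 in the degron line, against 4.10 in S2A and 0.64 in WT. MYD88, the adaptor of Toll-like receptors, stood at 0.566 and 0.278 CPM in untreated WT, 0.829 and 1.44 in treated WT, 0.707 and 0.601 in untreated S2A, and 35.2 and 35.3 in treated S2A. It was low outside treated S2A, with 13, 31 and 19 counts summed over the other 3 groups, and differed by 4.32±0.62 (adjusted p = 2.2e-04). MYD88 also changed by 2.30 to 4.48 in the 4 other mutant lines and by 3.32 in the degron line. SNAI1, a repressor of E-cadherin, and TENT5C, a poly(A) polymerase, differed by 2.99±0.37 and 2.89±0.24. Both began lower in untreated S2A, by -1.85 (adjusted p = 8.1e-05) and -0.80 (adjusted p = 0.0017), and ended higher in treated S2A than in treated WT, by 1.13 and 2.09.

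WDR74, a factor in ribosome assembly, stood at 54.5 and 53.4 CPM in untreated WT, 44.8 and 60.6 in treated WT, 63.9 and 59.6 in untreated S2A, and 324 and 292 in treated S2A. The treated S2A libraries were the only ones to leave that range, and the difference was 2.35±0.22 (adjusted p = 1.3e-06). WDR74 changed by 0.81 in Y1F, 0.15 in T4V, -0.33 in S5A, 0.09 in S7A and -0.41 in the degron line, against 2.32 in S2A. Its locus overlaps RNU2-2P, an annotated copy of the U2 small nuclear RNA, on the same strand, so reads of the 2 cannot be told apart. Of the 19982 genes tested, 2596 were called lower in untreated S2A than in untreated WT, among them 8 of the 15 named lower genes. For 8 of the 15 named higher genes untreated S2A was likewise called below untreated WT. It was called above untreated WT for 0 of the named higher and 2 of the named lower genes. Of all 574 higher genes, 24.6% were called lower and 17.8% higher in untreated S2A, and of the 931 lower genes 26.7% and 24.7%. A low untreated S2A level by itself raises the difference in change, and its part in these calls was not tested. SHISA2, an inhibitor of Wnt and FGF receptors, is the plainest case: it stood at 6.79 and 6.08 CPM in untreated S2A against 37.2 and 42.4 in untreated WT, and at 37.3 and 34.1 against 30.4 and 31.8 after treatment. A direct difference between the treated lines did not pass the test for SHISA2 (0.20, adjusted p = 0.27) or for PHLDA2 (0.29, adjusted p = 0.42), which stood at 2.55 and 1.87 CPM in untreated S2A against 9.18 and 8.47 in untreated WT. The other 13 were higher in treated S2A directly. All 15 kept their call with each library left out.

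**Figure D3:**
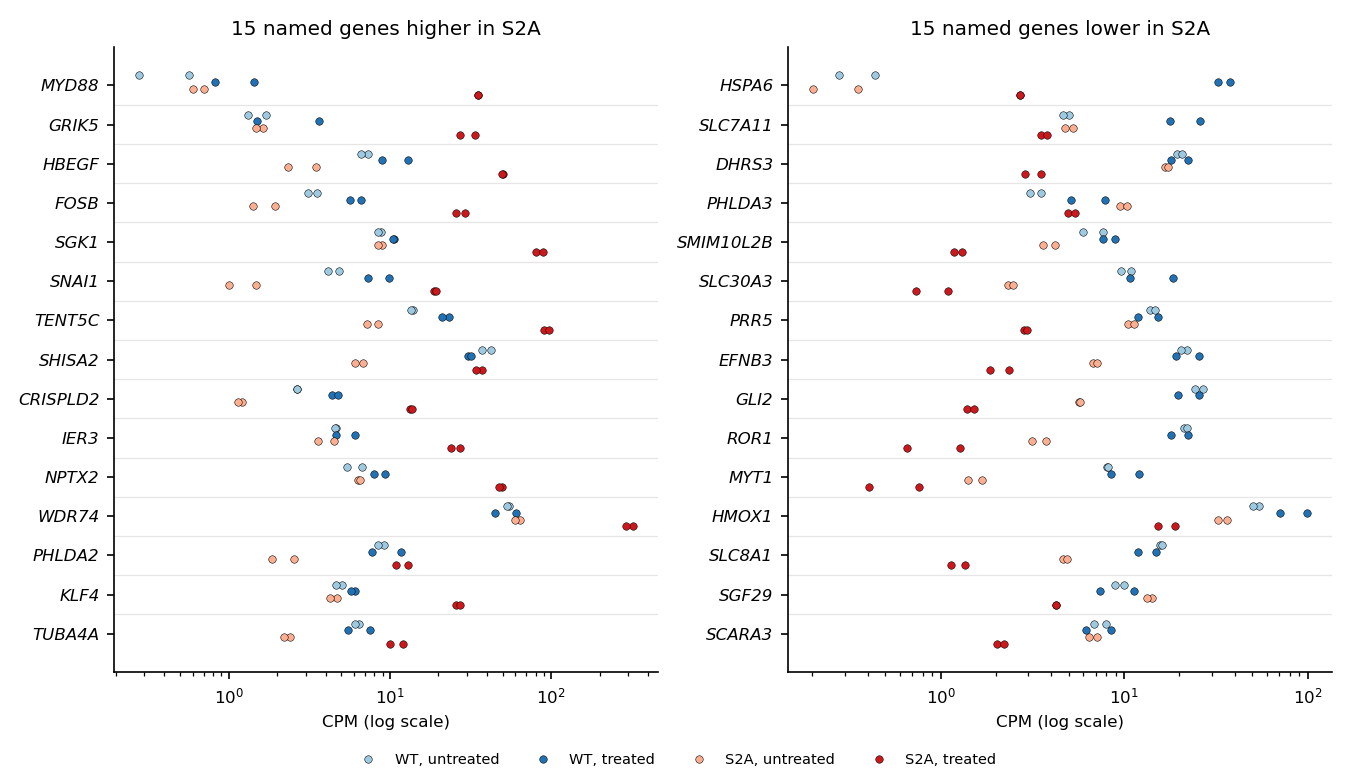
Levels in CPM (log axis) of the 15 named higher and 15 named lower genes in each of the 8 libraries, 1 point per library. In most rows of the left panel the dark red points of treated S2A lie to the right of the rest, and in most rows of the right panel to the left. SHISA2 and PHLDA2 differ mainly in untreated S2A, and HSPA6 and SLC7A11 mainly in treated WT.

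Among the genes with the largest downward differences, 2 layouts were seen in the levels. In the first, WT rose and S2A rose less, fell or did not pass the test. SLC7A11, the cystine transporter that feeds glutathione synthesis, stood at 5.03 and 4.65 CPM in untreated WT, 25.9 and 17.7 in treated WT, 5.23 and 4.74 in untreated S2A, and 3.51 and 3.82 in treated S2A. Only treated WT was high, and the difference was -2.60±0.38 (adjusted p = 2.7e-04). SLC7A11 overlaps an antisense gene, SLC7A11-AS1. HMOX1, a haem-degrading enzyme, stood at 54.1 and 50.5 CPM in untreated WT, 70.8 and 99.6 in treated WT, 36.3 and 32.5 in untreated S2A, and 18.8 and 15.3 in treated S2A. It rose in WT by 0.70 (adjusted p = 0.0093) and fell in S2A by 1.01 (adjusted p = 9.6e-05), for a difference of -1.71±0.23 (adjusted p = 1e-04). HSPA6, a strictly inducible heat shock protein, stood at 0.440 and 0.278 CPM in untreated WT, 32.3 and 37.7 in treated WT, 0.354 and 0.200 in untreated S2A, and 2.69 and 2.71 in treated S2A. Both lines rose, WT by far more, and the difference was -3.30±0.84 (adjusted p = 0.019). The untreated levels of HSPA6 rest on few counts, and its call was lost without untreated S2A replicate 1 (adjusted p = 0.23), untreated S2A replicate 2 (0.053) or untreated WT replicate 2 (0.061). HSPA6 changed by 3.61 in Y1F, 3.23 in T4V, 2.34 in S5A, 8.60 in S7A and -0.27 in the degron line. Near-identical copies of heat shock genes can share reads.

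PHLDA3, a repressor of AKT, rose in WT by 1.00 (adjusted p = 0.026) and fell in S2A by 0.93 (adjusted p = 0.0043), for a difference of -1.93±0.35 (adjusted p = 0.0018). It stood higher in untreated S2A (9.48 and 10.4 CPM, against 3.52 and 3.05 in untreated WT), and treated levels were closer (4.97 and 5.43, against 5.14 and 7.91).

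In the second layout S2A fell and the change in WT did not pass the test. DHRS3, a retinaldehyde reductase, stood at 19.4 and 20.6 CPM in untreated WT, 18.1 and 22.4 in treated WT, 16.7 and 17.2 in untreated S2A, and 3.51 and 2.88 in treated S2A. Treated S2A alone was low, and the difference was -2.42±0.25 (adjusted p = 2.7e-06). DHRS3 was also lower against the mean of the other CTD mutants (-1.33±0.21, adjusted p = 6.5e-04), although it changed by -0.55 to -1.47 in those 4 lines and by -1.90 in the degron line. PRR5, a subunit of mTOR complex 2, stood at 13.8 and 14.7 CPM in untreated WT, 11.9 and 15.3 in treated WT, 10.5 and 11.4 in untreated S2A, and 2.85 and 2.97 in treated S2A (-1.85±0.36, adjusted p = 0.003). PRR5 overlaps the read-through gene PRR5-ARHGAP8 on the same strand, so reads of the 2 cannot always be told apart. The transcription factor GLI2 of the Hedgehog pathway, the receptor ROR1, the ligand EFNB3 and the sodium-calcium exchanger SLC8A1 fell from levels that were already lower in untreated S2A, by -2.17, -2.65, -1.60 and -1.73 against untreated WT. Their differences in change were -1.78±0.38, -1.74±0.27, -1.79±0.29 and -1.69±0.32. The calls of SLC30A3, a zinc transporter (-1.91±0.53, adjusted p = 0.031), and MYT1, a neural zinc finger factor (-1.74±0.46, adjusted p = 0.025), were kept in 1 and 2 of 8 fits with 1 library left out. Against the mean of the other CTD mutants, DHRS3 and EFNB3 (-1.07±0.26, adjusted p = 0.02) were the 2 of the 15 named lower genes called lower. The other 13 did not pass, among them ROR1 (-0.86, adjusted p = 0.11), PRR5 (-0.71, adjusted p = 0.24), GLI2 (-0.78, adjusted p = 0.25) and SLC8A1 (-0.33, adjusted p = 0.65). SLC8A1 changed by -1.19 to -1.84 in the 4 other mutant lines and by -1.63 in the degron line, against -1.93 in S2A. GLI2 changed by -0.81 to -1.66 in those 4 and by -1.40 in the degron line, against -1.96. SGF29, a subunit of the SAGA complex, differed from WT by -1.68 and from the other mutants by -0.04 (adjusted p = 0.99). Apart from SLC30A3, MYT1 and HSPA6, the other 12 named lower genes kept theirs in all 8.

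The genes that write, read and follow the serine 2 mark were then taken by role. Of the 7 kinases, cyclins and recruiters that act on CTD serine 2, CDK12 alone was called. It stood at 155 and 154 CPM in untreated WT, 133 and 124 in treated WT, 344 and 331 in untreated S2A, and 175 and 176 in treated S2A. All S2A libraries were above all WT libraries, and S2A fell further (-0.67±0.11, adjusted p = 5.3e-04). Treated S2A still exceeded treated WT directly, by 0.46 (adjusted p = 5.6e-05), so the direction depends on whether change or level is compared. CDK12 also changed by -0.96 in Y1F, -0.18 in T4V, -0.64 in S5A, -0.75 in S7A and -1.01 in the degron line, against -0.94 in S2A. Against the mean of the other CTD mutants it differed by -0.31±0.08 (adjusted p = 0.041 in edgeR's test). CDK9, the kinase of the elongation factor P-TEFb, was at -0.28 (adjusted p = 0.42), with changes of -0.25 in S2A and 0.03 in WT. Among 12 phosphatases and associated proteins that act on the CTD, 3 were lower, against 4.66% of all genes: CTDSPL (-0.72±0.15), RPRD2 (-0.66±0.12) and CTDSP1 (-0.98±0.26, a call kept in 2 of 8 fits with 1 library left out). RPRD2 rose in WT by 0.33 and fell in S2A by 0.33. In edgeR's test 0 of 11 RNA polymerase II subunits other than RPB1 were called (1 at an unadjusted p under 0.05, 1 by DESeq2) and 0 of 10 other CTD kinases and cyclins (3 and 1).

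HEXIM1, which holds CDK9 inactive within the 7SK particle, was the only call among 9 pausing factors and 7SK regulators. It stood at 58.9 and 58.2 CPM in untreated WT, 113 and 139 in treated WT, 92.8 and 97.2 in untreated S2A, and 700.1 and 684 in treated S2A. It rose in both lines, by 2.86 in S2A and 1.10 in WT, and the difference was 1.76±0.15 (adjusted p = 3.8e-07). HEXIM1 also changed by 2.06 in Y1F, 1.71 in T4V, 1.11 in S5A, 1.20 in S7A and 1.74 in the degron line. S2A exceeded the mean of the other CTD mutants by 1.35±0.12 (adjusted p = 6e-07). Of 25 elongation factors, 3 were higher (12.0%, against 2.87% of all genes): CTR9, a subunit of the PAF complex (0.75±0.15), ELOA, the main subunit of elongin (0.66±0.12), and EAF1, a partner of ELL (0.82±0.20). CTR9 and ELOA kept their call with any 1 library left out, and EAF1 in 1 of 8 such fits. None of the 3 kept its call with the authors' factors.

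Of 24 cleavage, polyadenylation and termination factors, 2 were higher and 2 lower (8.33% each way, against 2.87% and 4.66% of all genes). CLP1, a subunit of cleavage factor II, stood at 35.8 and 34.0 CPM in untreated WT, 33.6 and 39.8 in treated WT, 41.2 and 42.2 in untreated S2A, and 84.2 and 86.8 in treated S2A. The treated S2A libraries were about 2-fold above the rest (0.96±0.17, adjusted p = 0.0014), but its call ended with the authors' factors and with mitochondrial scaling. CLP1 overlaps MIR130AHG on the same strand and YPEL4 on the other. PCF11 (0.53±0.15), which binds the serine 2 mark, WDR33 (-0.50±0.14) and CSTF2T (-0.43±0.12) were each called in only 1 or 2 of the 8 fits with 1 library left out. Of 14 Integrator genes, INTS2 was higher and INTS7 lower. INTS2 stood at 40.1 and 40.1 CPM in untreated WT, 33.6 and 27.9 in treated WT, 67.2 and 73.3 in untreated S2A, and 149 and 166 in treated S2A (1.54±0.21, adjusted p = 9.6e-05). INTS7 differed by -0.80±0.17 and lost its call without treated S2A replicate 1 (adjusted p = 0.058).

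Of 26 SR and hnRNP splicing factors, 1 was higher (3.85%, against 2.87% of all genes), HNRNPH1 (0.46±0.11), and 3 were lower (11.5%, against 4.66%). HNRNPDL stood at 427 and 451 CPM in untreated WT, 303 and 248 in treated WT, 443 and 449 in untreated S2A, and 121 and 129 in treated S2A. It fell in both lines and by more in S2A (-1.16±0.18, adjusted p = 3.8e-04). Its paralog HNRNPD fell in the same way, with a difference of -0.79±0.12, and both genes showed no called difference between S2A and the mean of the other CTD mutants (-0.02, adjusted p = 0.99, and 0.05, adjusted p = 0.86). SRSF3 (-0.53±0.14) was called in 2 of 8 fits with 1 library left out and HNRNPH1 in 6.

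**Figure D4:**
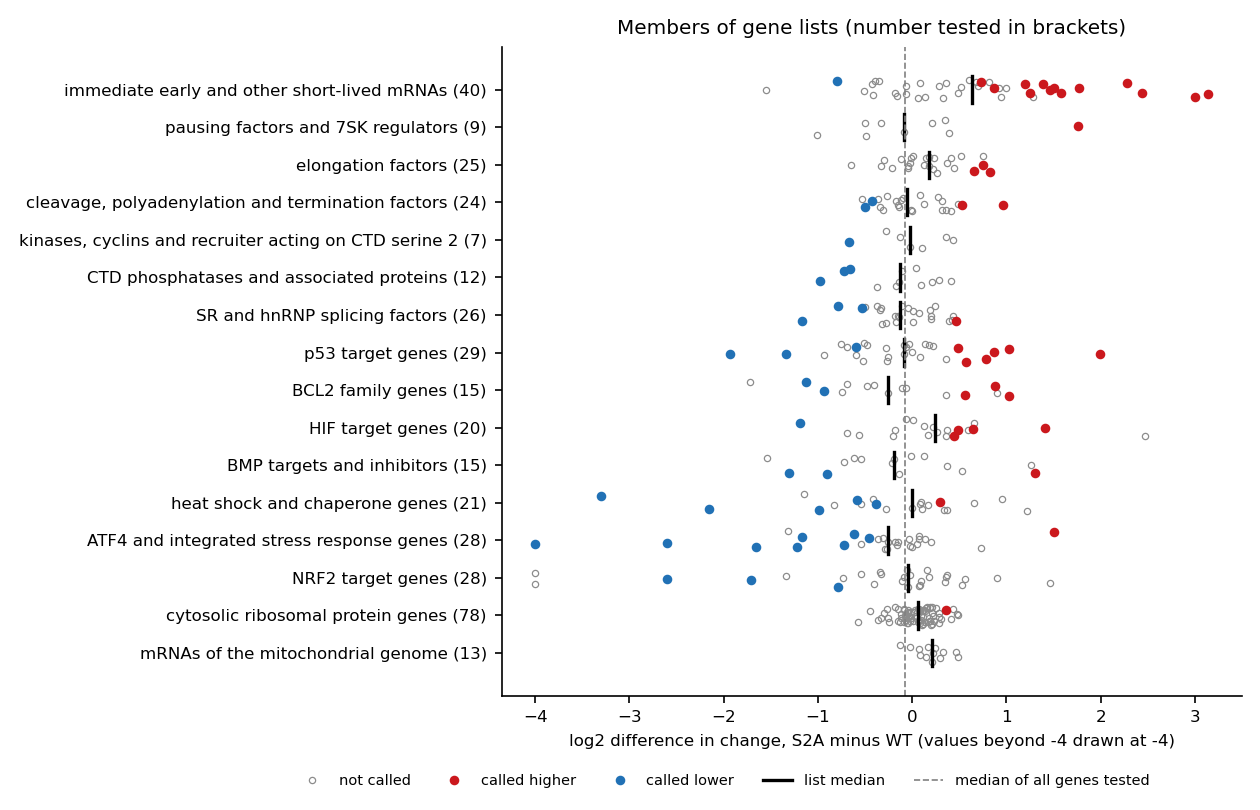
Log2 difference in change (S2A minus WT) of every tested member of 16 gene lists, with genes called higher in red, genes called lower in blue and the rest as open circles. The black bar is the list median and the dashed line the median of all genes. The short-lived mRNAs stand furthest right, and the ATF4, heat shock and NRF2 lists hold the lowest points.

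Stress response lists moved in parts. Of 28 ATF4 and integrated stress response genes, 8 were lower and 1 higher, against 4.66% and 2.87% of all genes, with a median of -0.26. The lower members were NUPR1, SLC7A11, SLC6A9, VLDLR, STC2, SLC7A1, ATF4 and PSAT1, and the higher one was ATF3, at 1.51±0.17. STC2, a secreted glycoprotein, differed by -1.17±0.16 (adjusted p = 1e-04) from a level already lower in untreated S2A, by -2.46, and SLC7A1, a cationic amino acid transporter, by -0.72±0.11 (adjusted p = 3.8e-04). ATF4, which encodes the factor itself, differed by -0.61±0.14 and lost its call without treated WT replicate 2 (adjusted p = 0.053). With each library left out, 5 to 7 members were lower, and the 8-library fit left 3. Against the mean of the other CTD mutants the ATF4 list had a median of 0.07. In that comparison 3 of its 28 genes were higher and 1 lower, against 2.2% and 1.38% of all genes. Compared with WT, 3 of 28 NRF2 targets were lower (10.7%, against 4.66% of all genes): SLC7A11, which is also in the ATF4 list, HMOX1 and GCLM. The difference of GCLM was -0.79±0.24, a call kept in 1 of 8 fits.

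Of 21 heat shock and chaperone genes, 5 were lower (23.8%, against 4.66% of all genes) and 1 higher (4.76%, against 2.87%). Apart from HSPA6 the lower ones were HSPA1A (-2.16±0.66), SERPINH1 (-0.99±0.26), HSPA1B (-0.58±0.14) and HSPA8 (-0.38±0.09), and the higher one was HSP90AB1 (0.29±0.09). HSPA1A and HSPA1B are near-identical copies and reads can pass between them. With 1 library left out, the lower count ran from 1 to 7, and HSP90AB1 lost its call each time. Against the mean of the other CTD mutants the heat shock list had a median of 0.09. In that comparison 3 of its 21 genes were higher and 0 lower, against 2.2% and 1.38% of all genes. Compared with WT, 6 of 29 p53 targets were higher (20.7%, against 2.87% of all genes) and 3 lower (10.3%, against 4.66%). With mitochondrial scaling, under which 198 genes in all were higher and 2032 lower, 2 of the 29 were higher and 6 lower. PLK2, a Polo-like kinase induced early after growth stimulation, stood at 4.97 and 4.93 CPM in untreated WT, 6.55 and 6.95 in treated WT, 5.73 and 4.54 in untreated S2A, and 27.3 and 28.6 in treated S2A (2.00±0.23, adjusted p = 1.7e-05). PPM1D (0.78±0.15) and TNFRSF10B (0.49±0.11) were higher, and PHLDA3, FAS (-1.33±0.36) and DDB2 (-0.59±0.17) lower. FAS and DDB2 were called in 1 of 8 fits with 1 library left out.

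In the BCL2 family of 15, the death-promoting BH3-only genes PMAIP1 (1.03±0.21), BCL2L11 (0.88±0.14) and BMF (0.56±0.17) were higher, and HRK (-1.13±0.26), also BH3-only, and the protective BCL2L2 (-0.94±0.19) were lower, 3 and 2 of 15 against 2.87% and 4.66% of all genes. BMF was called in 1 of 8 fits with 1 library left out and HRK in 6. The higher calls of all 3 ended with the authors' factors. BCL2L2 overlaps the read-through gene BCL2L2-PABPN1. Of 20 HIF targets, ADM (1.41±0.24), PFKFB3 (0.65±0.17), HK2 (0.49±0.15) and KDM3A (0.45±0.13) were higher and CA12 (-1.19±0.17) lower, 4 and 1 of 20 against 2.87% and 4.66% of all genes. Of the higher 4, ADM, a vasodilator peptide, kept its call with any library left out. The list held 1 to 3 higher calls in those fits, and 1 with the authors' factors or with mitochondrial scaling.

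Feedback and lineage genes split. Of 15 BMP targets and inhibitors, ID2 was higher (6.67%, against 2.87% of all genes) and ID3 and BMP2 lower (13.3%, against 4.66%). ID2, an inhibitor of basic helix-loop-helix factors, stood at 152 and 150.5 CPM in untreated WT, 117 and 124 in treated WT, 130.0 and 131 in untreated S2A, and 252 and 263 in treated S2A. It rose in S2A and fell in WT, for a difference of 1.30±0.10 (adjusted p = 1.7e-07). ID3, of the same family, stood at 132 and 131, 96.2 and 133, 194 and 189.8, and 69.6 and 65.5 CPM in those groups in that order, for a difference of -1.31±0.24 (adjusted p = 0.0019). BMP2, a ligand of the pathway, fell in both lines and by more in S2A (-0.91±0.19). Of 14 ERK feedback genes, SPRY1 was lower (-0.93±0.17) and DUSP5, a phosphatase of ERK, higher (1.30±0.28), each 7.14% of the list. DUSP5 stood at 11.9 and 12.1 CPM in untreated WT, 8.62 and 9.29 in treated WT, 2.19 and 1.20 in untreated S2A, and 3.42 and 2.80 in treated S2A. Its S2A levels were all below its WT levels, and treated S2A was below treated WT directly, by -1.52 (adjusted p = 1.3e-06), so here too the direction depends on whether change or level is compared. The DUSP5 call was kept in 6 of 8 fits with 1 library left out.

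Differences in change also varied with gene length. Genes under 5 kb were called higher in 2.92% of cases and lower in 1.57%, with a median difference of 0.05. Genes over 200 kb were called higher in 1.38% and lower in 9.56% (125 of 1308), with a median of -0.23. Between 100 and 200 kb the lower share was 8.08%, and between 5 and 50 kb it was 4.48% to 4.55%. Within protein-coding genes under 50% GC the lower share went from 4.58% below 20 kb to 7.62% above 100 kb, and above 50% GC from 4.87% to 14.6%. After GC correction the median still went from 0.15 in the shortest to -0.19 in the longest class, and with mitochondrial scaling from -0.21 to -0.51. Against the mean of the other CTD mutants it went from 0.05 to -0.15. These are descriptions across genes, which are not independent, and genes of different length also differ in level and in GC content.

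**Figure D5:**
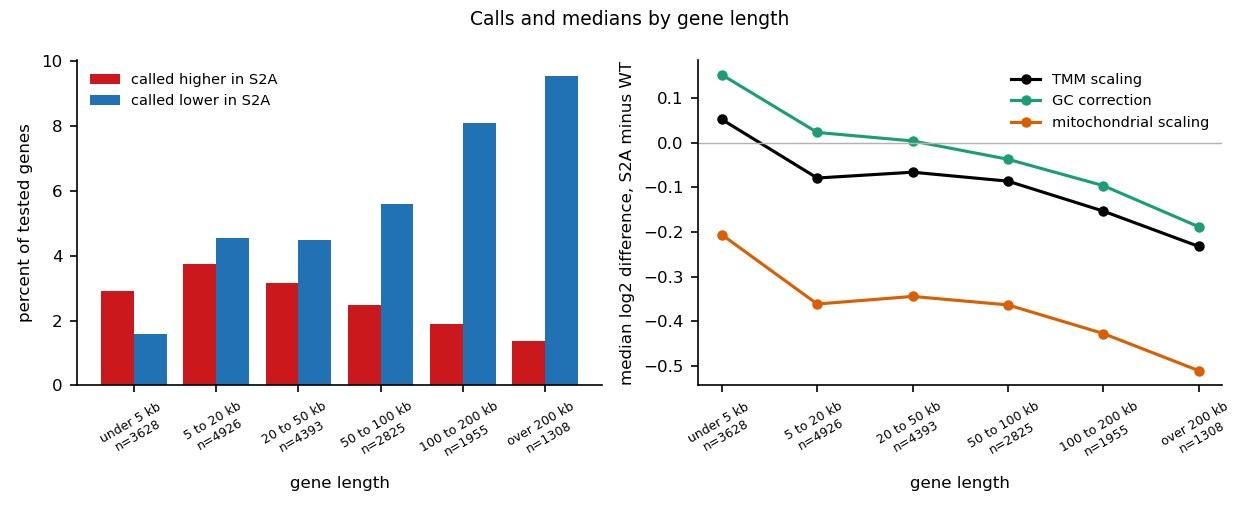
Left, percent of tested genes called higher (red) and lower (blue) in S2A than in WT by gene length, with the number of genes below each class. Right, median log2 difference in change by the same classes under 3 scalings. The blue bars go from 1.57% to 9.56%, and the median goes down from the shortest to the longest class in each of the 3.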

How the data were processed

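The deposited counts, whole numbers of reads per gene, were made by the authors. The submitters' processing notes name featureCounts 2.0.1, STAR 2.7.3a and Trim Galore 0.6.2, and the builds dm6 and hg38. Per the labels' protocols, poly(A) RNA was read from both ends at 150 bp, with 10% of fly cells added. All 61578 listed genes are human, so scaling by fly counts could not be made. Neither the annotation release nor the use of strand is given in the sources used here. Overlapping genes are named above for some genes only. HEXIM1 (HEXIM2-AS1), CTR9 (EIF4G2) and GRIK5 (ZNF574) are among others that overlap a gene on the other strand. The authors also deposited TPM values and tables of p-values, log2 fold changes and base means (a signal) per gene, for which those notes name DESeq2 1.24.0. TPM served only as a check, and the base means gave the authors' factors. Promoters came from RefSeq and coordinates from GENCODE 29, which 56659 gene IDs matched and 4919 did not.

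The main test was the robust quasi-likelihood test of edgeR 4.0.16 under R 4.3.3 on the deposited counts, with TMM factors and 1 coefficient for each of 15 groups over all 30 libraries. It had 15 residual degrees of freedom (common dispersion 0.0122). Genes passed filterByExpr (minimum count 10, total 15). Benjamini-Hochberg adjustment ran over all 19982 genes tested. Standard errors are the log2 value over the square root of F, and CPM uses TMM-scaled library sizes. Pooling assumes that all groups vary alike. The replicate SD was 0.409 in treated WT, against 0.134 in untreated WT, 0.12 in untreated S2A and 0.184 in treated S2A. The test was checked on simulated data drawn with the same dispersion trend in every library. That check therefore cannot show what unequal spread between groups does to the calls.

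Named genes were up to 15 each way by size of the difference, among calls averaging 5 CPM or more whose 4 treated minus untreated differences in S2A all lay beyond the 4 of WT, leaving out IDs without symbol, clone-type names and pseudogenes, with POLR2A and up to 4 members per list. Other members of lists with few calls were named after their values were seen. The result of 1 list is not reported here. The comparison, members and 35 gene lists were chosen with earlier results of these data known. Also tried were the Wald test and size factors of DESeq2 1.42.0, the authors' factors, scaling by 13 mitochondrial mRNAs, no filter, a mean of at least 5 CPM, GC correction, a replicate block, both together, the 8 libraries alone, a fit without Mock, treated S2A set directly against treated WT, and fits without 1 library. Python 3.11.15 and matplotlib 3.10.9 were used for tables and plots.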

Additional observations from a re-analysis of the deposited data

Results flagged for a closer look

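In 5 of the genes named, the change with treatment passed edgeR's test in opposite directions in the 2 lines, and the difference between the changes passed as well. PHLDA3 fell by 0.93 on the log2 scale in S2A (adjusted p = 0.0043) and rose by 1.00 in WT (adjusted p = 0.026), a difference of -1.93. HMOX1 differed by -1.71, with S2A lower and WT higher after treatment in 2 of 2 libraries each. RPRD2, which binds the phosphorylated CTD, differed by -0.66, with a fall in S2A and a rise in WT of 0.33 (adjusted p = 0.0054 and 0.027).

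ID2 rose in S2A by 0.98 (adjusted p = 4.1e-09) and fell in WT by 0.33 (adjusted p = 0.011), a difference of 1.30. PMAIP1, which encodes the death-promoting protein NOXA, rose in S2A by 0.45 (adjusted p = 0.024) and fell in WT by 0.58 (adjusted p = 0.026), a difference of 1.03. All 5 kept the call of the difference with each of the 8 libraries left out. The directions within a line rest on the scaling as well. In the authors' deposited tables none of the 5 changes in WT passed. There PMAIP1 was at -0.07 in S2A and -0.84 in WT, the same sign, while the others kept opposite signs.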

How the results depend on the processing

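Against WT, genes called higher and lower numbered 239 and 258 with the 8 libraries alone, 2261 and 2366 with GC correction, 198 and 2032 with mitochondrial scaling, and 3772 and 4203 when treated libraries were compared directly. The authors' factors gave 133 higher. DESeq2's Wald test gave 796 and 835, no filter 553 and 673, and a mean of at least 5 CPM 818 and 754. With 1 library left out the counts ran from 275 to 676 higher and from 408 to 1179 lower. Against the other CTD mutants GC correction gave 2025 higher and 1488 lower, mitochondrial scaling 223 and 90, the authors' factors 30 lower and no filter 147 lower. With 1 library left out, these counts ran from 166 to 498 higher and from 70 to 309 lower. The cause of these moves was not tested, beyond the fewer libraries of some fits.

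The replicate block gave 287 higher and 427 lower genes against WT, and 196 and 84 against the other mutants. With GC correction and the block it was 2178 and 2198, and 1943 and 1363. Replicate numbers did not pair the libraries: deviations of same-numbered treated and untreated libraries correlated at 0.127 in S2A and -0.51 in WT (11374 genes). Crossing the WT numbers, an alternative chosen after seeing the data, gave 344 higher and 550 lower, and 255 and 126 against the other mutants.

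Of 2241 values of 107 named genes under the alternatives, 1844 kept direction and side of the threshold, 392 kept direction and lost the call, 1 gained it and 4 reversed. Those 4 came from treated libraries compared directly: CDK12 (0.455), DUSP5 (-1.52), DDB2 (0.16) and LHX1 (-0.58). The authors' factors ended the calls of CTR9, ELOA, SOD2, CCNE1, PCNA, PTTG1 and ATP5F1B as well. Genes with few counts in untreated cells, such as HSPA6 and MYD88, have the widest errors.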

Other observations

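Of 33 DNA replication genes, 2 were higher in the difference in change (6.06%, against 2.87% of all genes) and 1 lower (3.03%, against 4.66%), while with treatment in S2A alone 6 were called higher and 13 lower, against 17% and 18.2% of all genes. CCNE1, the cyclin that drives entry into S phase (0.99±0.13, adjusted p = 9.3e-05 in edgeR's test), and PCNA, the replication clamp (0.54±0.11), were higher and CDC45 (-0.51±0.16, called in 1 of 8 fits with 1 library left out) lower. Of 28 mitosis genes, 7.14% were called: PTTG1, the securin (0.64±0.13), and KIF23 (0.59±0.14, called in 4 of 8 such fits), both higher. ATP5F1B, a subunit of ATP synthase, was the only call among 37 nuclear respiratory chain genes, at 0.52±0.11. The calls of CCNE1, PCNA, PTTG1 and ATP5F1B ended with the authors' factors.

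Replication-dependent histone mRNAs normally lack a poly(A) tail. Of 60 such genes matched, 28 did not pass the filter on low counts, which genes raised by treatment pass more easily. Of the 32 tested, 28 were called higher with treatment in S2A, against 17% of all genes, and 14 in WT, against 3.09%, with 18 not called in WT. The median changes of the 32 were 1.96 and 1.21. The difference between the lines passed for H2BC21 alone (1.61±0.30, adjusted p = 0.0022), which stood at 1.26 and 1.39 CPM in untreated WT, 4.56 and 2.89 in treated WT, 4.17 and 3.94 in untreated S2A, and 35.5 and 33.2 in treated S2A. SOD2, the mitochondrial superoxide dismutase, was the only call among 15 NF-kB targets (0.80±0.16).

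A further 9 lists held at most 1 call each way, 1.28% to 4.55% of their members where there was one. RPL15 was the only call among 78 ribosomal protein genes (0.36±0.10, adjusted p = 0.036, kept in 0 of 8 fits with 1 library left out) and SNHG17 among 22 snoRNA host genes (-0.68±0.18, adjusted p = 0.024, kept in 1 of 8). Of 22 cholesterol genes, FDPS was higher (0.54±0.15, adjusted p = 0.033, kept in 2 of 8) and INSIG1 lower (-0.65±0.19, adjusted p = 0.036, kept in 1 of 8). In edgeR's test 0 of 11 splicing kinases were called (4 at an unadjusted p under 0.05, 1 by DESeq2), 0 of 19 interferon-stimulated genes (6 and 0), 0 of 13 mitochondrial mRNAs (4 and 0), 0 of 15 lung epithelial markers (2 and 1), 0 of 5 immune markers (0 and 0) and 0 of 3 fibroblast markers (1 and 0).

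Among markers of other cell types, KDR, the VEGF receptor of endothelium, stood at 1.82 and 2.08 CPM in untreated WT, 1.66 and 1.51 in treated WT, 0.778 and 0.401 in untreated S2A, and 3.91 and 3.56 in treated S2A (2.96±0.46, adjusted p = 5.3e-04). ESAM differed by 1.20±0.29 (called in 6 of 8 fits with 1 library left out) and LHX1, of kidney and neuronal markers, by 1.34±0.35 (called in 2 of 8).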
